A study of Mus musculus with 4 samples.

Results

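The E(+)T(+) heart library, from the cancer exercise group, was set against the E(−)T(−) heart library of the normal control group to ask what remained away from the healthy sedentary state when cancer and exercise were combined. These are 2 of the 4 heart libraries of the study, with 1 library a group. Genes with a normalized read count of 16 or more in 1 of these 2 libraries were kept, which left 12147 of the 23282 genes listed. At its edge, Twist2, Ppm1h and Rab40b were kept with a higher count of 16.01, and Gm17762, Dixdc1 and Zswim3 were not, with 15.99, 15.98 and 15.98. All mice were male mice of the CDF1 strain, with postnatal day 28 as the labelled age. By the study's methods, 4 weeks was the age at purchase, and hearts were collected only after the tumor and exercise course. The mice were thus older than the label when their hearts were taken. The E(−)T(−) group was given neither tumor cells nor exercise, whereas the E(+)T(+) group was injected with CT26 cells, a murine colorectal carcinoma line, into the tail vein and was run on a motorized treadmill as high-intensity aerobic exercise. The normal exercise group E(+)T(−) was exercised without tumor cells, and the cancer control group E(−)T(+) was given tumor cells without exercise. Hearts with tumor, as written below, are hearts of mice that were given tumor cells. Whether these hearts themselves held tumor cells is not stated in the sources used here. For muscle the study describes a single representative animal per group, and whether a heart library likewise holds 1 mouse is not stated for the heart. The 2 hearts compared differ in both cancer and exercise, so that the part of each cannot be told apart between them, and the levels in the other 2 groups are set beside each result as values only.

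A growing tumor acts on distant organs through blood-borne cytokines, which drive the acute phase response and the release of neutrophils from bone marrow, and it can cause wasting of heart and skeletal muscle. The heart is a mix of contractile cardiomyocytes, endothelial cells, fibroblasts that lay down the collagen matrix, resident macrophages and the blood that is left in its chambers. It burns mostly fatty acids, and its RNA changes with work load, feeding state, stress hormones and time of day.

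Libraries were made with a kit that reads the 3′ end of mRNA, and the deposited log2 values gave back whole reads, with totals of 6595444 to 11545994 reads a library. Globin transcripts held 37.3% of the reads of E(+)T(+) and 7.86% to 8.76% of those of the other 3 hearts, and the 10 most abundant genes took 44.5% of E(+)T(+) and 19.6% to 21.1% of the others. Defining cardiomyocyte markers were abundant in every library, with Tnnt2, a thin filament subunit, at normalized read counts from 89586 to 145836. Lymphocyte markers were near 0, with Cd3e, Cd79a and Nkg7 under 16 in both hearts compared. Over the kept genes the median difference was −0.02 on the log2 scale, with quartiles of −0.49 and 0.41. Where reads were scaled to library size without the globin, heme and erythroid genes, the median of all kept genes moved by −0.19, and with plain library size, in which the globin reads count, by −0.73. Every difference below is relative to the deposited normalization, under which the median lies near 0.

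A gene was called when the deposited values differed by at least 1 on the log2 scale, that is 2-fold. By this rule 1096 of the 12147 genes were higher in E(+)T(+), which is 9.02%, and 1237 were lower, which is 10.2%. These shares over all kept genes are the background for the counts of every list below. A gene under 16 normalized reads in 1 of the 2 hearts was kept only through the other, so the filter bears on its direction. The call is no test, since each group has 1 library and no spread between animals is known. Of the called genes, 1070 higher and 1208 lower had a 95% Clopper-Pearson interval of the read ratio that did not reach 1, an interval that covers counting error only and takes PCR copies for separate molecules. At least 8-fold differences were held by 193 genes with higher and 65 with lower values. Scaling to library size without the globin, heme and erythroid genes gave 883 higher and 1773 lower genes, so that the share of calls that were higher stood at 33.2% in place of 47.0%.

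**Figure D1:**
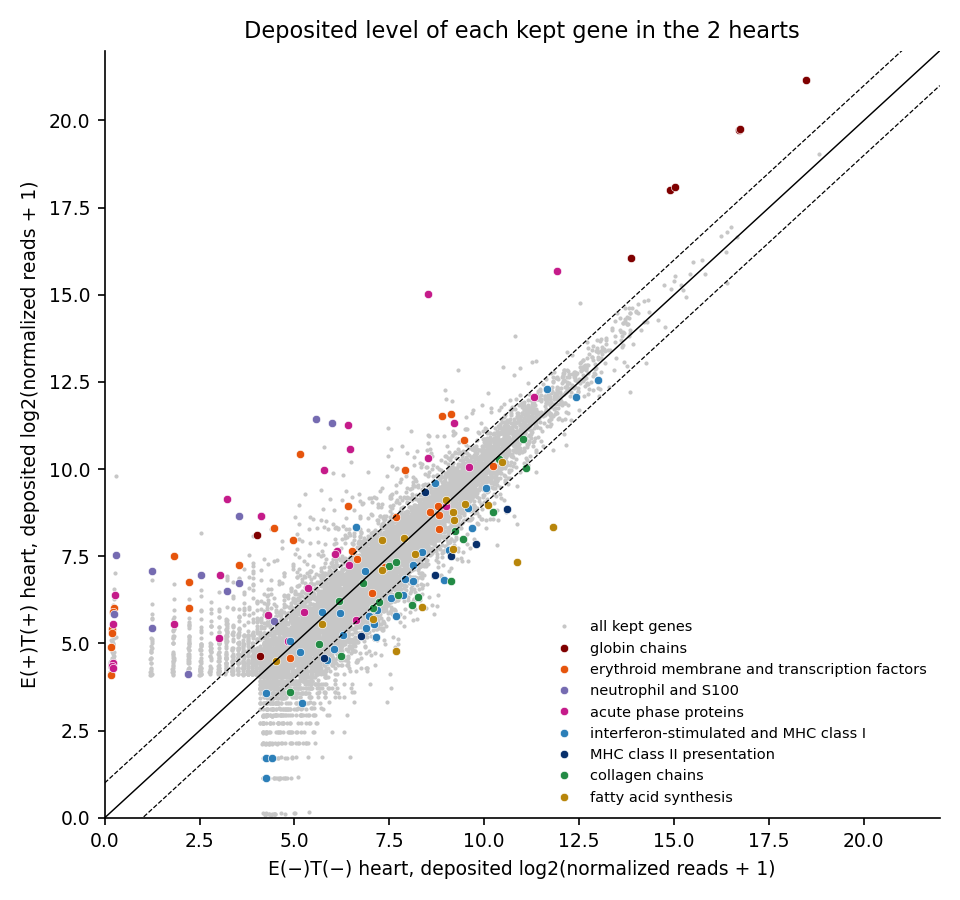
Deposited log2(normalized reads + 1) of each of the 12147 kept genes in the E(−)T(−) heart (horizontal axis) and the E(+)T(+) heart (vertical axis), 1 library each, with the solid line at equal values and dashed lines at 2-fold. Globin, erythroid, neutrophil and acute phase genes lie mostly above the upper dashed line, and most MHC class II and interferon genes, 11 of 19 collagen genes and several fatty acid synthesis genes lie below the lower one.

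The gene with the largest bound was Ucp1, the proton channel of brown fat mitochondria, with 814 reads in E(+)T(+) and 0 reads in each of the other 3 hearts. Against a floor of 3 reads it was at least 201-fold higher in E(+)T(+) than in E(−)T(−). Mmp8, a neutrophil collagenase, was at least 41.7-fold higher, and Car1, the erythrocyte carbonic anhydrase, at least 29.4-fold higher, both on 0 reads in E(−)T(−), so that their rank among the higher genes is not known. Downward, Apln, the peptide ligand of the apelin receptor, differed most among genes that reached 100 normalized reads, by −4.13 (95% interval −5.54 to −3.29). Rem1, a small GTPase that restrains calcium channels, followed with −3.83 (95% interval −4.99 to −3.08), and then Fasn, fatty acid synthase, with −3.54 (95% interval −3.805 to −3.31). In bulk tissue, fewer cells of a type and less RNA per cell cannot be told apart, and this holds for every list below.

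Blood genes were among those that were higher. Levels are given as normalized read counts in the order E(−)T(−), E(+)T(−), E(−)T(+) and E(+)T(+). Of 8 kept globin chains, which carry oxygen in red cells, 7 were higher and none lower, with a median log2 difference of 3.01. Hbb-bt stood at 33363, 32722, 29593 and 278824, a difference of 3.06 (95% interval 3.05 to 3.08). The globin copies are nearly identical, and how the counting divided reads between them is uncertain. Of 11 heme synthesis genes, 5 were higher, although the median of the list was only 0.105. Alas2, the erythroid enzyme for the first step of heme synthesis, stood at 1789, 1599, 2135 and 14331, a difference of 3.001 (95% interval 2.93 to 3.08). Slc25a37, the mitochondrial iron importer, stood at 511, 407, 603 and 4169. In both, E(+)T(+) alone was high, and the other 3 hearts lay close together. Fech, which inserts iron into the ring, differed by 1.904 (95% interval 1.797 to 2.02).

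Of 29 kept erythroid membrane and transcription factor genes, 19 were higher and none lower, with a median of 2.52, or 2.46 with genes at 0 reads set to their bound. A minimum of 64 normalized reads gave 1.36 and plain library size gave 1.79. Several of these genes, Gata1, Hemgn and Ermap among them, were kept only through their level in E(+)T(+), so that the filter bears on their direction. Slc4a1, the band 3 anion exchanger of the red cell membrane, stood at 34.7, 49.6, 41.2 and 1391, a difference of 5.29 (95% interval 4.82 to 5.91). Again E(+)T(+) was the one high heart. The nuclear genes of red cell precursors were read as well, although with few reads elsewhere. Gata1, the master regulator of red cell genes, had 0, 5, 8 and 59 reads. Hemgn, a nuclear protein of erythroid precursors, had 2, 4, 10 and 165 reads, a difference of 5.67 (95% interval 4.42 to 9.36). Ermap, an erythroblast membrane protein, was at least 13.4-fold higher on 54 reads against 0. The summed level of the erythroid list was 15840.2 in E(+)T(+) and 4785 to 5823 in the other 3 hearts.

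The platelet and megakaryocyte list, with 9 genes kept, had 7 higher and none lower, at a median of 1.71. Its gene Gp1bb, part of the von Willebrand factor receptor, stood at 51.9, 160.1, 176 and 199. For this gene E(−)T(−) was low, and the other 3 hearts were near each other.

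The start regions of 2 erythroid genes show letters that the factor Gata1 is known to bind. The promoter windows from RefSeq (build GRCm38.p6) run from 250 bases before to 50 bases after the start, and AGATAA on either strand is set in capitals. It occurs in 12.7% of the 27025 genes with a window, in 6 of 22 erythroid list genes with a window and in 2 of 9 heme synthesis genes. Hemgn is printed as the erythroid gene with this motif that differed most, at chr4:46404134-46404433 on the minus strand, and Alas2 as its counterpart in heme synthesis, at chrX:150547167-150547466 on the plus strand. A match is a description of the letters and no sign of binding in these hearts.
Hemgn: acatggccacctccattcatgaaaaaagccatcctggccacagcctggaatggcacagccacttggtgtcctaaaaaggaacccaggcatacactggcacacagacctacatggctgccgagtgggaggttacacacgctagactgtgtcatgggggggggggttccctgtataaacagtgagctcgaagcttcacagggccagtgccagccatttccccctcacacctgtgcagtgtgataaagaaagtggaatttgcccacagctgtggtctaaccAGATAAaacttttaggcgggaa
Alas2: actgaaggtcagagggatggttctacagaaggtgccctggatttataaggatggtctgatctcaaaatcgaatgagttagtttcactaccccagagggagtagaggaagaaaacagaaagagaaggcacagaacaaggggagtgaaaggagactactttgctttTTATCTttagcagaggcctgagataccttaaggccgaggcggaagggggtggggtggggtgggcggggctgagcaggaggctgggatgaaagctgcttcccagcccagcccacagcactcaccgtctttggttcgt

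Of the 21 listed genes of the neutrophil and S100 list, 13 were kept, several of them only through their level in E(+)T(+), so that the filter bears on their direction. These 13 were all called higher, with a median of 4.54 (4.41 with bounds), which was 3.301 with no minimum. S100a8, a calcium-binding alarmin that neutrophils carry in bulk, stood at 46.1, 34.2, 1332 and 2773, a difference of 5.88 (95% interval 5.47 to 6.41). S100a9, its partner, stood at 62.2, 35.99, 1477 and 2547. Both hearts with tumor were high and both without tumor were low. Genes named here were picked by their difference between E(+)T(+) and E(−)T(−), so the order of that pair was set in advance. How many of all kept genes share such an order of the 4 hearts was not counted, here or for the genes below. Ngp, a neutrophil granule protein, had 1, 2, 62 and 123 reads, a difference of 5.82 (95% interval 4.37 to 12.19), and Camp, the antimicrobial peptide cathelicidin, was at least 12.96-fold higher on 52 reads against 0. The summed level of the 21 listed genes of this list was 6981 for E(+)T(+) and 4703 for E(−)T(+), whereas the hearts without tumor stood at 196 for E(−)T(−) and 129 for E(+)T(−).

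Acute phase genes, which the liver and other tissues switch on under interleukin 6 and interleukin 1, were higher in 21 of 28 cases and lower in none, at a median of 2.94 (2.14 with bounds). With no minimum the median was 2.15. Several of these genes, Saa3, Fgb and Saa2 among them, were kept only through their level in E(+)T(+), so that the filter bears on their direction. Mt2, a metal-binding metallothionein, stood at 363, 921, 30027 and 33224, a difference of 6.51 (95% interval 6.36 to 6.68). Its neighbour Mt1 stood at 3850, 5303, 37928 and 52973. In both genes the hearts with tumor were high and those without tumor low. Saa3, a serum amyloid A protein made outside the liver, stood at 8.29, 2.55, 2593 and 567, so that its level in E(+)T(+) lay between that of E(−)T(+) and those of the hearts without tumor. Fgb, the fibrinogen beta chain, was at least 18.9-fold higher and Saa2 at least 10.7-fold, both on 0 reads in E(−)T(−).

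Of 20 interleukin 1 and 6 signaling genes, 6 were higher and none lower, at a median of 0.71. Socs3, the feedback inhibitor of interleukin 6 signaling, stood at 87.4, 219.6, 687 and 1529, a difference of 4.11 (95% interval 3.8 to 4.49), with E(+)T(+) highest and E(−)T(−) lowest. Nfkbia, the inhibitor of NF-κB, stood at 1765, 2305, 5668 and 6676, with both hearts with tumor high. Nfkbiz, its nuclear relative, stood at 16.3, 54.3, 46.7 and 111. Il1r1, the signaling receptor of interleukin 1, differed by 1.23 (95% interval 0.68 to 1.87).

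Chemokines, which attract leukocytes, and their receptors were higher in 12 and lower in 3 of 24 kept genes, at a median of 1.004, which was 0.67 when each gene was centred on genes of like transcript length. Cxcl2, a neutrophil attractant, had 4, 0, 13 and 265 reads, nearly all of them in E(+)T(+). Cxcl1, a close relative, stood at 14.01, 15.2, 43.1 and 147. The complement list held 5 higher and 1 lower genes of 20. C4b, a component of the classical pathway, stood at 90.8, 172, 795 and 592. Clu, a secreted chaperone that limits complement, stood at 2468, 3109.6, 14262 and 8545. Cfb, of the alternative pathway, stood at 41.5, 49.6, 226 and 131. For these 3 genes E(−)T(+) was highest and E(+)T(+) second.

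The monocyte and macrophage list was divided, with 6 higher and 4 lower genes of 23 and a median of −0.13. Cd14, the lipopolysaccharide coreceptor, stood at 81.7, 150, 259 and 668 and was highest in E(+)T(+). Arg1, an arginase of alternatively activated macrophages, had 0, 2, 444 and 32 reads and was at least 8.14-fold higher in E(+)T(+) than in E(−)T(−), but lower there than in E(−)T(+). General markers were under 2-fold in either direction, with Adgre1, a surface receptor of mature macrophages, at −0.57 (95% interval −1.25 to 0.07), Csf1r, the receptor for the macrophage growth factor, at −0.702 (95% interval −0.86 to −0.55), Cd68, a lysosomal protein, at 0.21 (95% interval −0.23 to 0.67) and C1qa, a complement subunit that macrophages make, at 0.81 (95% interval 0.67 to 0.95). Of the lymphocyte list only 5 genes were kept, 2 of them called higher and none lower.

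MHC class II genes, by which dendritic cells, macrophages and B cells present antigen, were lower in 6 of 7 kept cases and higher in none, at a median of −1.602. H2-Aa, an alpha chain, stood at 1548, 1586, 142 and 463, a difference of −1.74 (95% interval −1.904 to −1.58). H2-Eb1, a beta chain, stood at 875, 979, 80.9 and 229.9. Cd74, the invariant chain that guides them, stood at 553, 651, 69.4 and 182. In each of these 3 genes the hearts without tumor were high, E(−)T(+) was lowest, and E(+)T(+) lay between. The B cell marker Cd79a had 6, 1, 0 and 3 reads. MHC genes have near-identical copies, and the division of reads between them is uncertain.

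Interferon-stimulated and MHC class I genes were lower in 21 and higher in 1 of 36 kept cases, against 10.2% lower over all kept genes, at a median of −1.19. Above 0 lay 6 of them, among them Ifitm3 with 0.62, Isg15 with 0.24 and Bst2 with 0.19. The summed level of the list was 24168 in E(−)T(−) and 19778 in E(+)T(+). Gbp7, a guanylate-binding protein of host defense, stood at 487, 222, 121 and 113, a difference of −2.1 (95% interval −2.44 to −1.799), and was highest in the healthy sedentary heart. Cxcl9, a chemokine induced by interferon gamma, had 18, 6, 7 and 2 reads. Oas2, a sensor of viral RNA, had 16, 9, 0 and 2 reads. Usp18, which removes the Isg15 tag and damps the pathway, had 16, 15, 11 and 1 reads. The differences of these 3 genes rest on few reads, with intervals on the log2 scale of −6.39 to −1.18, −6.23 to −0.98 and −9.46 to −1.38. Tgtp2, a T cell GTPase that interferon gamma induces, stood at 181, 96.8, 33.3 and 16.6.

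Interferon factors bind a repeat in the start regions of such genes, written here as TTTC, any 2 bases and TTTC again, on either strand. It occurs in 3.99% of the 27025 genes with a promoter window and in 15 of the 29 genes of the list with one, and in 7 of the 13 with one that were called lower. The list was drawn up from known interferon targets, so this share describes the list and not the hearts. Gbp7 and Gbp3, both on chromosome 3, are printed as the 2 called genes with the motif that differed most downward, at chr3:142530086-142530385 and chr3:142559794-142560093 on the plus strand of GRCm38.p6. The capitals mark the repeat, which in Gbp3 occurs as 2 overlapping matches. Gbp3 stood at 136, 77.8, 35.99 and 46.05, a difference of −1.54 (95% interval −2.11 to −1.05).
Gbp7: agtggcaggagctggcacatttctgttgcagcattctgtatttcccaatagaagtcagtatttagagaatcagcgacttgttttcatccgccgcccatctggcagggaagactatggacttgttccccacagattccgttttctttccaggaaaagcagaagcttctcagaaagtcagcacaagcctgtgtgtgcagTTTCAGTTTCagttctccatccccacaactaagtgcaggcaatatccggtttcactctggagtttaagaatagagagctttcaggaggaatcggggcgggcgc
Gbp3: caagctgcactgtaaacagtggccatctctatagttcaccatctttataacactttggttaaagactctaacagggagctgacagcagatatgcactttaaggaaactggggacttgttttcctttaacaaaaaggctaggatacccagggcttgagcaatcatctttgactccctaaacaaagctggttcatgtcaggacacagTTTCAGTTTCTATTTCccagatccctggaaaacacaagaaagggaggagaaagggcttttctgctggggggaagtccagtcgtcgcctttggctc

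**Figure D2:**
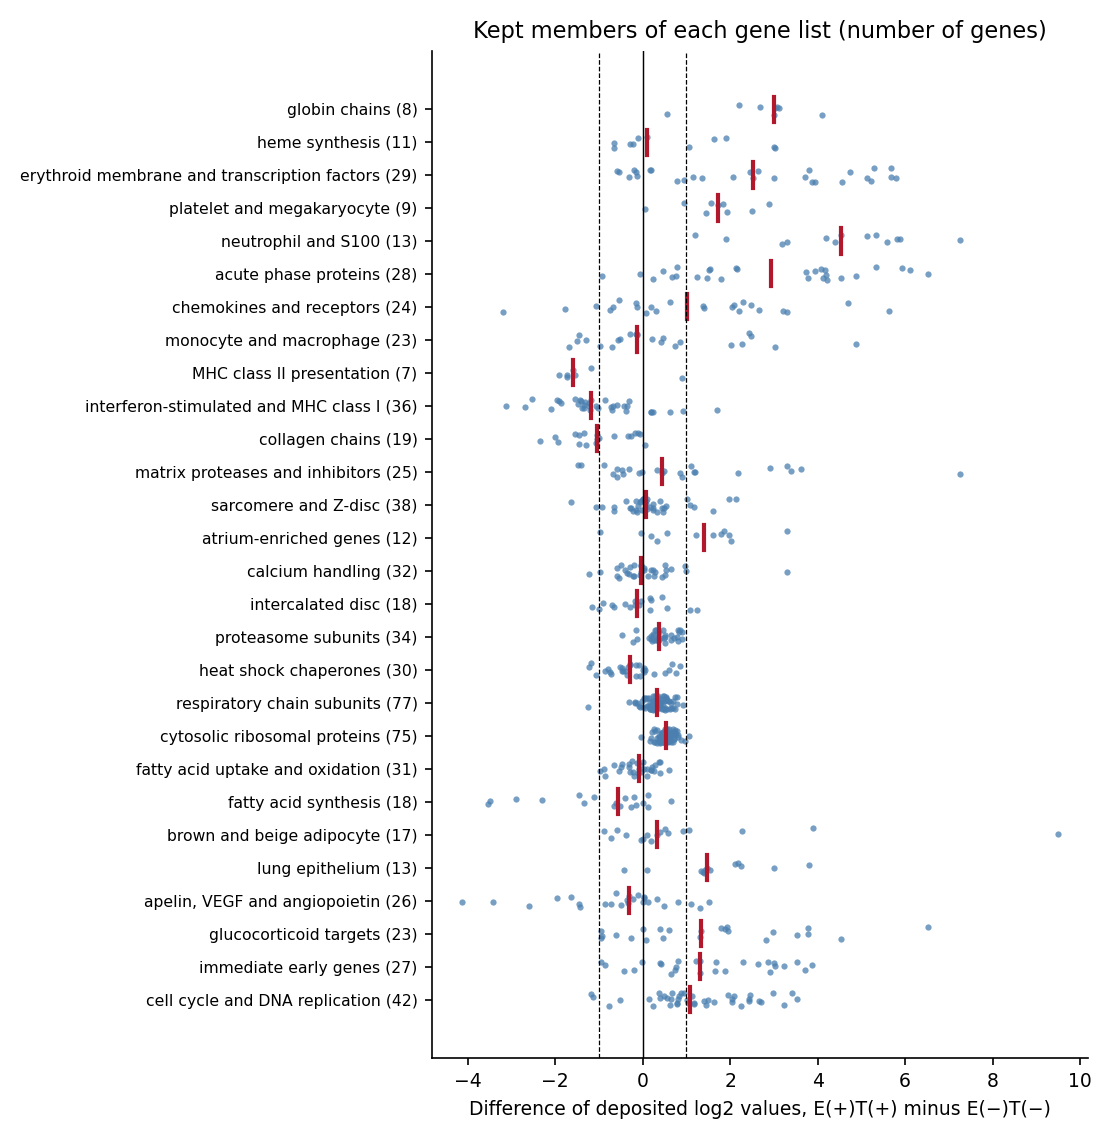
Difference of deposited log2 values, E(+)T(+) minus E(−)T(−), for the kept members of 28 gene lists, with each gene as a point, the median of the list as a red bar, the number of kept genes in parentheses, and dashed lines at 2-fold. The neutrophil median of 4.54 lies farthest to the right and the MHC class II median of −1.602 farthest to the left.

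Collagen chains, the main fibres and basement membranes of the heart, were lower in 11 and higher in none of 19 kept cases, at a median of −1.05, which was −0.86 when centred on genes of like transcript length. Col3a1, of the fine reticular fibres, stood at 1202, 2180.3, 4359 and 439.8, a difference of −1.45 (95% interval −1.62 to −1.28). Col1a1, of the thick fibres, stood at 599, 1231, 2564 and 301, a difference of −0.99 (95% interval −1.21 to −0.78), just short of 2-fold. For both collagens, E(−)T(+) was highest and E(+)T(+) lowest. Col15a1, a chain of capillary and muscle basement membranes, stood at 562, 798, 286 and 109.5. Col6a3, of the fine filaments around cells, stood at 274, 422, 434 and 67.97. The fibroblast markers Pdgfra, a growth factor receptor, and Dcn, the proteoglycan decorin, differed by −0.12 (95% interval −0.41 to 0.17) and 0.53 (95% interval 0.499 to 0.55) and were not called. The activated fibroblast list had 3 higher and 1 lower genes of 19. Fap, a protease of such cells, had 45, 35, 55 and 7 reads.

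Other matrix genes were mixed. Of 44 matrix glycoproteins and proteoglycans, 4 were higher and 9 lower. Lox, the enzyme that crosslinks collagen and elastin, stood at 35.8, 62.3, 496 and 245. Eln, elastin, stood at 184, 610.4, 952 and 604. For both, E(−)T(−) was lowest and E(−)T(+) highest. Fmod, a collagen-binding proteoglycan, stood at 98.6, 269, 17.4 and 20.96, with both hearts with tumor low. Of 25 matrix proteases and inhibitors, 9 were higher and 2 lower. Mmp3, stromelysin, stood at 33.5, 88.4, 1035 and 340.1. Timp1, an inhibitor of such proteases, stood at 20.9, 51.4, 814 and 164, a difference of 2.91 (95% interval 2.28 to 3.78). In both the level in E(+)T(+) was well above E(−)T(−) and well below E(−)T(+). Adam8, a leukocyte protease, had 2, 1, 112 and 39 reads.

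Most genes of the contractile apparatus differed by less than 2-fold, as did most of all kept genes. Of 38 sarcomere and Z-disc genes, 6 were higher, 2 lower and 30 differed by less than 2-fold, at a median of 0.07. Over all kept genes, 9.02% were higher and 10.2% lower. Myh6, the main heavy chain of the adult mouse heart, differed by 0.49 (95% interval 0.47 to 0.52) and Tnnt2 by 0.45 (95% interval 0.44 to 0.46), and both turned below 0 with plain library size. Myl2, the ventricular light chain, differed by −0.23 (95% interval −0.25 to −0.21). Acta1, the skeletal form of alpha-actin, stood at 14562, 16247, 5219.6 and 4711, a difference of −1.63 (95% interval −1.68 to −1.58), with both hearts with tumor low. Ankrd1, a stretch-sensing repressor in the cardiomyocyte nucleus that was picked after its values were seen, stood at 86534, 67705, 185619.9 and 41160.3, a difference of −1.07 (95% interval −1.09 to −1.05), and was highest in E(−)T(+) and lowest in E(+)T(+). The list of fetal and stress genes, which failing hearts are known to switch on again, had 4 higher and 3 lower genes of 21. Gdf15, a stress hormone of the TGF-β family, stood at 117, 107, 53.7 and 18.8, lowest in E(+)T(+). Of 9 kept genes of skeletal muscle fibres, 1 was higher and 2 were lower.

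Most genes that mark the atria stood above the healthy level. Of 12 kept atrium-enriched genes, 7 were higher and none lower, at a median of 1.41, which was 0.67 with plain library size. Above 0 lay 10 of them and below it 2, the lowest at −0.98. Sln, sarcolipin, which restrains the calcium pump of atrial cells, stood at 498, 1268, 599 and 4897, a difference of 3.296 (95% interval 3.16 to 3.45). Myl4, the essential light chain of atrial myosin, stood at 735, 1458, 573 and 2873. Myl7, the regulatory light chain, stood at 746, 1715, 687 and 2273. E(+)T(+) was highest in these 3 genes, E(+)T(−) second, and the 2 sedentary hearts lay close together. Nppa, the atrial natriuretic peptide, differed by 0.56 (95% interval 0.52 to 0.59). The share of atrium in each heart sample is not given in the sources used here, and its part in these differences was not tested.

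Calcium handling genes were seldom called, with Sln the only higher and Camk2g, a calcium-dependent kinase with −1.23 (95% interval −1.705 to −0.801), the only lower gene of 32. Of 22 voltage-gated channel genes, 2 were higher and none was lower, among them Kcnh2, a repolarizing potassium channel with 1.01 (95% interval 0.65 to 1.39). The call of Kcnh2 was lost with a pseudocount of 4, at 0.99, after subsampling and with library size scalings. Kcna5 and Kcnj2, which also carry potassium, differed by −0.98 and −0.97, just short of the 2-fold line. Of 23 adrenergic and muscarinic signaling genes, 3 were higher and 3 lower. Adrb3, a beta-adrenergic receptor known best from fat, had 36, 1, 2 and 5 reads, most of them in E(−)T(−). Rgs4, which shortens G protein signals, stood at 424, 455, 60.6 and 168. Pde4b, which breaks down cyclic AMP, stood at 595, 589.6, 971 and 2121. Of 18 intercalated disc genes, 2 were higher and 1 lower, among them Tjp1, a junction scaffold, with −1.17 (95% interval −1.53 to −0.83).

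**Figure D3:**
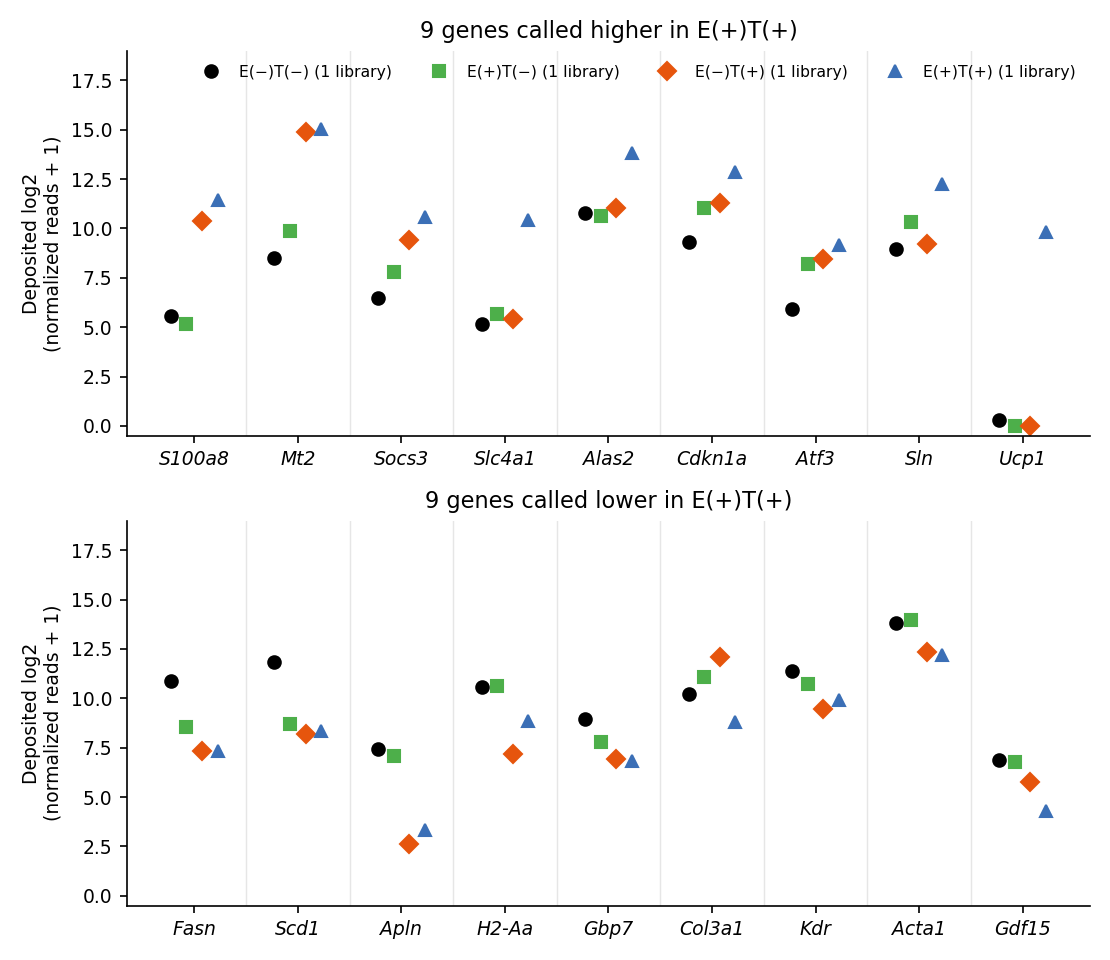
Deposited log2(normalized reads + 1) of 18 genes in the 4 heart libraries, 1 point a library, for 9 genes that were called higher (upper panel) and 9 called lower (lower panel) in E(+)T(+) against E(−)T(−). S100a8 and Mt2 are high in both hearts with tumor, Slc4a1, Alas2, Sln and Ucp1 are highest in E(+)T(+) alone, and Col3a1 is highest in E(−)T(+) and lowest in E(+)T(+).

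Protein breakdown was examined because cancer can waste muscle. Of 21 atrophy ligases and FoxO genes, 5 were higher and none lower, at a median of 0.25. Trim63, the muscle ubiquitin ligase MuRF1, stood at 1639.6, 1461, 4404 and 2299.9, a difference of 0.49 (95% interval 0.39 to 0.59), under 2-fold. Bnip3, a receptor for the removal of mitochondria, stood at 1088, 1005, 4058 and 4678. Ddit4, an inhibitor of mTOR, stood at 815, 1620.4, 3525 and 3131. For both genes the hearts with tumor were high. Of 33 autophagy and mitophagy genes, 4 were higher and none lower. Atg13, of the complex that starts autophagy, differed by 1.43 (95% interval 1.198 to 1.69), Bnip3l, also used when red cells shed their mitochondria, by 1.36 (95% interval 1.23 to 1.5), and Ctsl, a lysosomal protease, by 1.12 (95% interval 1.01 to 1.23).

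Proteasome subunits differed by small steps, mostly upward. None of 34 was called, but 30 lay above 0, at a median of 0.37, which turned to −0.37 with plain library size. Psmd4, a ubiquitin receptor of the cap, stood at 2009, 1856, 4525 and 3742, with both hearts with tumor high. Of 30 heat shock chaperones, which refold damaged proteins, 3 were lower and none higher, a share of lower genes near the 10.2% over all kept genes, at a median of −0.28. Hsp70 copies such as Hspa1a and Hspa1b are near-identical and uncertain. Hsph1, an Hsp70 exchange factor, stood at 341, 1533, 81.8 and 149, with E(+)T(−) far above the other 3 hearts, and Hsf1, the master factor of the heat shock response, differed by −1.06 (95% interval −1.56 to −0.62). The unfolded protein and integrated stress response list had 5 higher and 1 lower genes of 28. Chac1, which degrades glutathione, had 1, 18, 66 and 52 reads, with E(−)T(−) lowest. Asns, asparagine synthetase, stood at 18.5, 27.1, 45.9 and 67.6. Trib3, a pseudokinase of the same response, stood at 32.1, 26.2, 53.2 and 9.99, lowest in E(+)T(+).

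Cytosolic ribosomal protein genes lay above 0 in 74 of 75 cases, with 1 called, at a median of 0.53, which turned to −0.21 with plain library size. Rps13, the called subunit, stood at 770.2, 849, 1615 and 1595. Nuclear-encoded respiratory chain subunits, which make up the electron transport chain and the ATP synthase, lay above 0 in 69 of 77 cases at a median of 0.33, which turned to −0.41 with plain library size. None was called higher, and Sdhd, of complex II, was called lower with −1.25 (95% interval −1.57 to −0.97). Mitochondrial ribosomal proteins were centred near 0, at 0.05, with 1 of 76 called lower, Mrpl49 with −1.04 (95% interval −1.31 to −0.78).

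Differences of this size went with transcript length. Among the 11703 kept genes with an annotated length, divided into 5 groups of near equal size, the group with the shortest transcripts had a median difference of 0.23 with 15.5% of genes higher and 5.81% lower. The group with the longest had −0.23 with 4.66% higher and 12.99% lower. Across genes, which are not independent, the Spearman correlation of difference and length was −0.22. For the same genes it was −0.16 for E(−)T(+) minus E(−)T(−) and −0.08 for E(+)T(−) minus E(−)T(−). All these differences share the E(−)T(−) library and are not independent of each other, so which library carries the trend cannot be told from them. The median transcript was 1106 bases long for the cytosolic ribosomal proteins, 1005 for the respiratory chain and 6119 for the collagen chains. With genes centred on others of like length, the medians were 0.27 for the cytosolic ribosomal proteins, 0.101 for the respiratory chain and 0.32 for the proteasome. RNA integrity is not given in the sources used here, and its part was not tested.

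**Figure D4:**
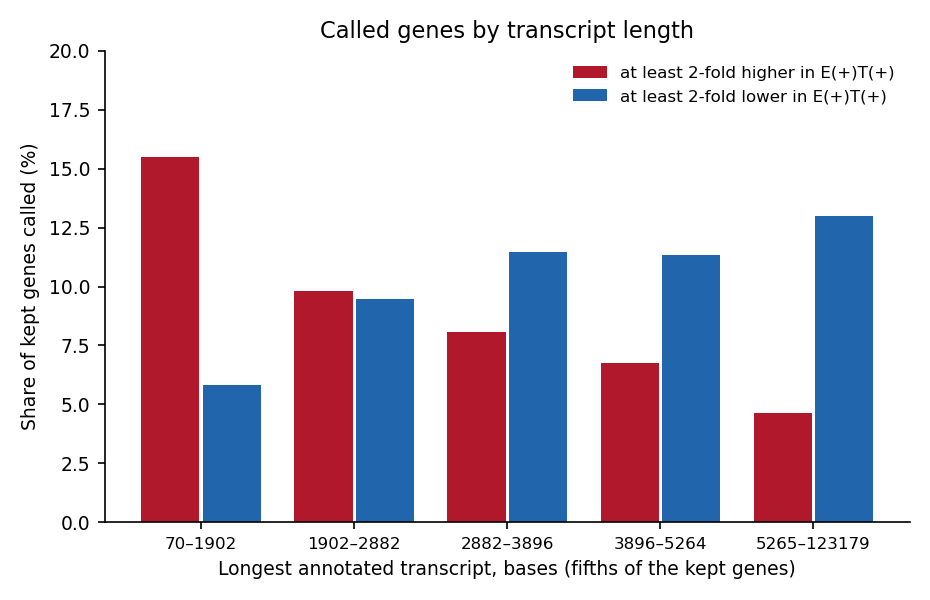
Share of kept genes that were at least 2-fold higher (red) or lower (blue) in E(+)T(+) than in E(−)T(−), in percent, for 5 groups of the kept genes by the length of the longest annotated transcript in bases. The share of higher genes falls from 15.5% to 4.66% and that of lower genes rises from 5.81% to 12.99% from the shortest to the longest group.

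Among fuel genes, several of fat synthesis were called lower, whereas no gene of fat burning was called. Of 18 fatty acid synthesis genes, 7 were lower and none higher, against 10.2% lower over all kept genes. Their median was −0.56, and 4 of them lay above 0. Fasn stood at 1869, 379, 161 and 159.9. Scd1, the desaturase that makes oleate, stood at 3625, 422, 289 and 323, a difference of −3.48 (95% interval −3.67 to −3.32). Elovl6, an elongase, stood at 202, 29.7, 20.96 and 26.4, and Acaca, acetyl-CoA carboxylase, stood at 325, 78.6, 68.6 and 64.7. In all 4 genes E(−)T(−) was high and the other 3 hearts were low, the exercised heart without tumor among them. Of 31 fatty acid uptake and oxidation genes none was called, at a median of −0.07, and Acadm, the medium-chain dehydrogenase, differed by −0.88 (95% interval −0.96 to −0.81). Of 17 cholesterol synthesis genes, Srebf2, the factor that drives them, was called higher with 1.04 (95% interval 0.35 to 1.84) and none was lower. That call was lost with a pseudocount of 4, at 0.97, and with library size scalings.

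Of 20 PPAR targets of fasting, 2 were higher and 1 lower. Ucp2, a mitochondrial carrier, stood at 327, 270.3, 473 and 1142. Bdh1, of ketone body use, stood at 737, 1003, 1738 and 2297. Both were highest in E(+)T(+). Angptl4, an inhibitor of lipoprotein lipase, stood at 157, 28.8, 4.19 and 41.6, highest in E(−)T(−). Pdk4, the kinase that shuts off pyruvate dehydrogenase in fasting, stood at 161, 77.7, 16.5 and 83.1, a difference of −0.95 (95% interval −1.38 to −0.55). Of 29 genes of glucose uptake and glycolysis, 2 were higher and none lower, namely Slc16a3, a lactate exporter with 2.62 (95% interval 1.72 to 4.07), and Phka1, a subunit of phosphorylase kinase with 1.72 (95% interval 1.44 to 2.02).

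Fat cell genes were listed by kind. Of 14 white adipocyte genes none was higher and 4 were lower, against 9.02% higher and 10.2% lower over all kept genes. Adipoq, adiponectin, stood at 363, 70.4, 66.8 and 389. Cfd, the serine protease adipsin, stood at 1228, 339, 348 and 1885. Adipoq and Cfd were high in E(−)T(−) and E(+)T(+) and low in the other 2 hearts. The other white fat markers were divided. Plin1 stood at 59.4, 14.3, 0 and 82.8, and Retn at 104, 16.1, 6.84 and 61.2, a difference of −0.75 (95% interval −1.28 to −0.27). Lep was not kept and had 8, 0, 0 and 0 reads. Car3, a carbonic anhydrase rich in fat, stood at 441, 83.98, 3.32 and 82.2, a difference of −2.41 (95% interval −2.81 to −2.07). Hcar1, the lactate receptor of fat cells, had 18, 7, 1 and 0 reads and was at least 4.93-fold lower. Of 17 brown and beige adipocyte genes, 4 were higher and none lower. Beside Ucp1 these were Elovl3, Dio2 and Cidea. Ucp1 and Elovl3 were kept only through their level in E(+)T(+), so that the filter bears on their direction. Elovl3, an elongase of brown fat, had 2, 1, 0 and 47 reads. Dio2, which activates thyroid hormone, stood at 30.1, 116, 317 and 149, and Cidea, a lipid droplet protein, stood at 428, 417, 579 and 892. Elovl3 shared the pattern of Ucp1, whereas Dio2 was highest in E(−)T(+). Zic1 and Lhx8, both markers of brown fat precursors, had 0 reads in E(+)T(+). How much brown fat lay on each heart is not given in the sources used here, and its part was not tested.

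Markers of a neighbouring organ moved as well. Of 13 kept lung epithelium genes, 11 were higher and none lower, at a median of 1.46, which was 0.78 with plain library size. Sftpc, surfactant protein C of alveolar cells, stood at 66.7, 34.2, 76.6 and 319. Scgb1a1, of airway club cells, stood at 467, 97.5, 363 and 1228. All 4 hearts held these RNAs, with E(+)T(+) highest and E(+)T(−) lowest. The summed level of the lung list ran from 1621 in E(+)T(−) to 3243 in E(+)T(+), and lay at 2103 in E(−)T(−) and 1991 in E(−)T(+). Of 6 kept genes of general epithelia 1 was higher and none lower.

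In the vessels, several genes of the apelin and VEGF systems were lower. Of 26 genes of this list, 7 were lower and 3 higher, at a median of −0.32. Apln stood at 173, 132, 5.07 and 8.92. Its receptor Aplnr stood at 81.9, 41.7, 2.44 and 6.72, again with both hearts with tumor low and both without tumor high. Dll4, a Notch ligand of growing vessel tips, stood at 213, 191, 54.5 and 34.1. Kdr, the main VEGF receptor, stood at 2631, 1707, 709 and 967, a difference of −1.44 (95% interval −1.56 to −1.33). The endothelial list as a whole was not lower, with 5 higher and 2 lower genes of 27 and a median of 0.33. Pecam1, an endothelial adhesion protein, differed by 0.98 (95% interval 0.89 to 1.07) and Cdh5, the endothelial cadherin, by −0.78 (95% interval −0.95 to −0.61). Selp, which leukocytes grip on inflamed endothelium, had 3, 7, 93 and 41 reads. Lyve1, of lymphatic vessels and some macrophages, stood at 376, 636, 1671 and 1529.7, with both hearts with tumor high.

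Smooth muscle and pericyte genes went both ways, with 3 higher and 2 lower of 15. Tagln, of contractile smooth muscle, stood at 150.5, 639, 691 and 659, and Cnn1, of the same cells, stood at 40.4, 300.5, 191 and 184, both with E(−)T(−) lowest. Pdgfrb, a pericyte receptor, stood at 274, 249.7, 248 and 117, and Notch3, another, stood at 153, 139, 93.4 and 46.1, both with E(+)T(+) lowest. Of 11 kept Schwann cell and neuron genes, 2 were higher and 4 lower. Dbh, the enzyme that makes noradrenaline in sympathetic nerves, stood at 94.7, 98.9, 5.08 and 11.1, lower in both hearts with tumor. Of 19 coagulation and fibrinolysis genes, 4 were higher and 2 lower, with Procr, the protein C receptor, at 10.6, 74.3, 89.3 and 53.6 and Plau, urokinase, at 24.1, 14.4, 44.4 and 5.61.

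Genes that respond to glucocorticoids, the adrenal stress hormones, were higher in 13 and lower in none of 23 cases, at a median of 1.33, which was 0.59 with plain library size. Its members Mt1, Mt2, Lcn2 and Ddit4 also stand in other lists described here. Cdkn1a, which halts the cell cycle and stands in the cell cycle list, stood at 634, 2118, 2519 and 7311, highest in E(+)T(+). Its difference was 3.52 (95% interval 3.402 to 3.66). Rasd1, a small GTPase induced by dexamethasone, had 1, 10, 41 and 29 reads. Lcn2, an iron-withholding protein of neutrophils and inflamed tissue, stood at 16.3, 15.2, 992 and 401, with both hearts with tumor high.

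Immediate early genes, which switch on within minutes of a stimulus, were higher in 16 and lower in none of 27 cases, at a median of 1.305, which was 0.57 with plain library size. Atf3, a stress-induced repressor, stood at 59.9, 293, 348 and 568, a difference of 3.23 (95% interval 2.84 to 3.69). Maff, a small Maf factor, stood at 50.7, 165, 283 and 679.8. Egr2 and Fosl1, both transcription factors, had 1, 28, 19 and 31 and 1, 5, 18 and 24 reads. In these 4 genes E(−)T(−) was the low heart, and the other 3 all lay above it. Egr2 and Fosl1 were kept only through their level in E(+)T(+), so that the filter bears on their direction. The time between the last run, death and freezing is not given in the sources used here.

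Among 21 clock genes, which keep daily time, 5 were higher and 1 lower. Nr1d1, a repressor of the clock loop, stood at 103, 113, 519.6 and 629.8. Ciart, another repressor, stood at 3.69, 6.17, 79.8 and 52.4. In both, the hearts with tumor were high. Per1, a period gene that stress hormones also induce, stood at 65.6, 194, 323 and 253, with E(−)T(−) lowest. Per3, a further period gene, stood at 42.2, 11.6, 45.2 and 7.803, low in both exercised hearts. The hour of death is not given in the sources used here, and its part was not tested.

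Of 38 antioxidant enzymes, 8 were higher and 2 lower. Gpx1, a glutathione peroxidase that is also abundant in red cells, stood at 1976, 2132, 3278 and 7589.6 and was highest in E(+)T(+). Hmox1, which breaks down heme, stood at 18.6, 36.9, 277 and 93.03, highest in E(−)T(+). Nfe2l2, the factor that drives many of these genes, stood at 621, 702, 225 and 171, low in both hearts with tumor. Of 23 iron handling and metallothionein genes, 4 were higher and 1 lower, with Blvrb, a biliverdin reductase of red cells, at 189, 222, 322 and 624. Of 20 hypoxia targets, 3 were higher and 2 lower, and P4ha1, a collagen prolyl hydroxylase, stood at 283, 524, 43.8 and 76.7, low in both hearts with tumor.

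Cell cycle and DNA replication genes were higher in 23 and lower in 2 of 42 cases, at a median of 1.08, which was 0.38 with plain library size. The largest rise in this list was that of Cdkn1a, which halts the cell cycle, with 3.52. Mki67, a marker of dividing cells, stood at 41.5, 27.9, 81.9 and 396, a difference of 3.22 (95% interval 2.77 to 3.803), with E(+)T(+) highest. Birc5, survivin, stood at 14.03, 23.3, 123 and 158, with both hearts with tumor high. Ccnb1, the mitotic cyclin, had 3, 8, 39 and 33 reads. The erythroid and neutrophil genes, whose precursors divide, were high in the same library, and their part in this list was not tested.

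Amino acid transporters were higher in 4 and lower in 3 of 22 cases. Slc3a2, the shared heavy chain of several transporters, stood at 489.8, 939, 2089 and 1991. Slc7a5, its partner for large neutral amino acids, stood at 9.41, 19.8, 31.7 and 78.4. In both, E(−)T(−) was lowest. Of 22 genes of the insulin-like growth factor axis, Irs2, an insulin receptor substrate, was higher with 1.64 (95% interval 0.902 to 2.58), and Grb10, an adaptor that restrains the receptors, lower with −1.13 (95% interval −1.38 to −0.9). Of 20 myostatin and activin genes, 5 were higher and 3 lower. Inhbb, a subunit of activin B, stood at 12.9, 27.9, 32.5 and 95.9. Fst, the activin antagonist follistatin, had 4, 12, 41 and 16 reads. Id2, a target of the BMP branch, stood at 541, 556, 845 and 1442, highest in E(+)T(+).

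In the death receptor pathway, 6 genes were higher and 4 lower of 24. Fas, the receptor, stood at 57.6, 60.4, 287 and 312, a difference of 2.42 (95% interval 2.01 to 2.91), with both hearts with tumor high. Cflar, which blocks the signal below the receptor, stood at 505, 573, 239 and 209, a difference of −1.27 (95% interval −1.53 to −1.03). Bcl2, which protects mitochondria, stood at 199, 184, 83.6 and 60.3. In both, the hearts with tumor were low. Bax, which opposes Bcl2, stood at 10.5, 20.7, 46.05 and 39.3, lowest in E(−)T(−).

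Further genes that the study names for the heart had few reads. Myoc, myocilin, had 21, 20, 2 and 14 reads, a difference of −0.61 (95% interval −1.74 to 0.39), which the depth does not resolve. Rdh11, a retinol dehydrogenase, had 31, 15, 13 and 10 reads, a difference of −1.59 (95% interval −2.89 to −0.63), and Nup98, of the nuclear pore, had 6, 19, 20 and 20 reads, a difference of 1.502 (95% interval 0.301 to 3.27).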

How the data were processed

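Heart RNA of 4 groups of mice, 1 library a group, was read by the study with a QuantSeq 3′ kit (total RNA, Trizol). Per the study's methods and the submitters' processing notes, reads were aligned with Bowtie2 to mm10, counted with Bedtools and normalized by the authors through quantile normalization in edgeR. The deposited values are log2 of the normalized read count plus 1, with 1 column a heart and 0 columns of no sample. Whether counting used strand is not given in the sources used here, so antisense and overlapping genes are uncertain, as are near-identical copies.

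The values fit edgeR's quantile-adjusted counts, in which whole reads of each library are mapped to 1 common effective size under a negative binomial of 1 dispersion (0.149), and not a rank-by-rank quantile normalization. From them whole reads were recovered for each library, and 100% of the 25460 values of 5 to 99 reads came out within 0.1 of a whole read, with deposited values returned to within 0.000586. Normalized counts are 2 to the deposited value, minus 1. Genes needed 16 normalized reads in 1 of the 2 libraries. A call is a log2 difference of at least 1 and no test, since 1 library a group leaves no replicate error and permits no p-value. Counting error alone is given, as 95% Clopper-Pearson bounds on the read ratio of both libraries after scaling, and a gene at 0 reads is given a bound from a floor of 3 reads (3.28 normalized reads in E(+)T(+) and 3.44 in E(−)T(−)). Where a symbol had several rows, the row with the highest mean was used.

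The 58 gene lists hold 1505 entries, of which 1489 matched a listed symbol. The comparison, the lists and the rules were chosen with earlier results of these data known. Named genes are the 12 with the largest difference each way, of those with 100 or more normalized reads, the 4 with the largest in each list, cell type markers, and 9 genes that the study names for the heart. Some of these are not reported here. Genes outside this rule are said to be so or stand for a limit, a motif or a count. Promoters came from RefSeq (GRCm38.p6) by symbol, and transcript lengths, the longest of each gene, from GENCODE vM21. Alternatives were other minimums, pseudocounts, scalings, folds and depths. The steps were tested on simulated data. Scripts ran under Python 3.11.15 with scipy 1.17.1, pandas 2.3.3, numpy 2.4.6 and, for plots, matplotlib 3.10.9.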

Additional observations from a re-analysis of the deposited data

How the results depend on the processing

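Of 178 named genes none that was called at 2-fold, and of 58 list medians none past 1, turned its sign under the alternatives run, whereas small positive medians such as those of the proteasome and respiratory chain turned below 0 with plain library size. Most alternatives change only which genes are kept or shift all genes by a similar step, with a largest shift of the median of −0.73. A difference past 1 could thus hardly turn its sign, and the lack of such turns tests little. Plain library size moved 29 of the genes across 2-fold, and a pseudocount of 4 moved 2. The count of higher genes was 1771 with a minimum of 4 normalized reads, 581 with 64, 2514 with none, and 2192 at a fold of 1.5. The count of lower genes was 669 with a minimum of 64, 2411 with none, and 2558 at a fold of 1.5. Scaling to plain library size gave 537 higher and 4351 lower genes with a median of −0.76 over all kept genes, since the globin reads of E(+)T(+) then count in its depth. The median was −0.24 with library size without genes over 1% and −0.22 without the globin, heme and erythroid lists. A trimmed mean of log ratios lies within 0.124% of the deposited sizes and so tests nothing further. A pseudocount of 4, reads subsampled to the smaller library, a minimum on the mean of all 4 hearts, and the requirement that the counting interval exclude 1 kept both counts within 1.5 times, as did 2 settings chosen after seeing the data, centring on genes of like transcript length (1065 higher and 1118 lower) and leaving out the lists of other cell types (1014 and 1218). The list medians of the matrix glycoproteins, heat shock chaperones, fatty acid synthesis, white adipocyte, Schwann cell, and apelin and VEGF lists went below −1 with plain library size, and those of the glucocorticoid and immediate early lists to under 1, the former also with no minimum (0.97). The chemokine median was 0.28 with plain library size, 0.80 without genes over 1%, 0.83 without the blood lists and 0.88 with a pseudocount of 4. The cell cycle median also went under 1 with a minimum of 64 (0.94), a pseudocount of 4 (0.99), library size without genes over 1% (0.89) and without the blood lists (0.91). No paired analysis was possible because each group has 1 heart library, and leaving out a replicate was not possible for the same reason.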

Other observations

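The genes in these paragraphs stand outside the lists and were picked because of their values, so they support no pattern of the report. Car2, a carbonic anhydrase of red cells and other tissues, stood at 38.1, 40.5, 57.97 and 620.2 normalized reads in E(−)T(−), E(+)T(−), E(−)T(+) and E(+)T(+). Cd24a, a surface protein of blood precursors, stood at 88.6, 116, 109 and 1529.7, and E2f2, a cell cycle factor of erythroblasts, stood at 63.4, 52.3, 115 and 957. Apol11b, of the apolipoprotein L family, stood at 54.2, 26.04, 21.8 and 1582. In these 4 genes E(+)T(+) was the one high heart. Clec4d, a lectin of myeloid cells, had 2, 14, 237 and 94 reads, and Hist1h2ap, a replication histone with near-identical copies, stood at 177, 163, 828 and 2324.

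Among lower genes outside the lists, Retnla, a marker of alternatively activated macrophages, stood at 369.9, 522, 16.5 and 78.9, and Marcks, a substrate of protein kinase C, stood at 1863, 1171, 474 and 344. Both hearts with tumor were low in each. Sox7, an endothelial factor, stood at 119, 65.2, 19.2 and 18.8, a difference of −2.599 (95% interval −3.51 to −1.93), and Bcl6b, another endothelial repressor, stood at 297, 384, 52.7 and 51.6. G0s2, an inhibitor of fat breakdown, stood at 763, 1022, 144 and 165. Parp14, an interferon-induced ADP-ribosyltransferase, stood at 277, 211, 100.4 and 50.5, a difference of −2.43 (95% interval −2.95 to −2.003).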
